A study of Mus musculus with 16 samples.

Results

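Tpp2 and 7 further peptidases of the cytosol were followed across 16 Affymetrix arrays of RNA bound to tagged ribosomes of mouse striatal D1 medium spiny neurons, the projection neurons of the striatum that carry the dopamine D1 receptor. The members were every probe set whose platform symbol was Tpp2, Thop1, Nln, Prep, Npepps, Lap3, Blmh or Dpp3. There were 17 of them, 5 for Tpp2, 2 each for Thop1, Nln, Prep, Npepps and Blmh, and 1 each for Lap3 and Dpp3, among 37112 probe sets tested. All 8 genes were measured, among 16206 genes. Tpp2 was selected on its measured values, since 1 of its probe sets was called lower in the deletion mice, so its genotype difference is a description and supports nothing. The other 7 genes share its broad function, trimming peptides in the cytosol or cleaving neuropeptides.

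The deletion mice (9) carried a tagged ribosome in D1 neurons and a homozygous deletion of miR-128-2 restricted to D1 neurons. The control mice (7) were age-matched littermates with the ribosome tag and no deletion, and both groups were C57BL6/J mice killed at 3 months of age. The labels do not say which driver limits the tag or the deletion to D1 neurons, and anything else that only the deletion mice carried cannot be told apart from the deletion. Experimental repeat 1 held 4 deletion and 4 control mice, and repeat 2 held 5 deletion and 3 control mice. The comparison asks which translated RNAs differ when D1 neurons lose this source of miR-128.

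Proteins are cut by the proteasome into short peptides, and cytosolic peptidases then trim these peptides to amino acids. Some of the same enzymes also cleave neuropeptides, among them substance P, neurotensin and dynorphin, which matter in the striatum because D1 neurons themselves make substance P and dynorphin. Tpp2 is the giant tripeptidyl peptidase that takes tripeptides off the ends of longer peptides. Thop1 and Nln are related zinc endopeptidases, Prep cuts after proline, and Npepps, Lap3, Blmh and Dpp3 remove amino acids or dipeptides from the amino end.

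The microRNA that the deleted locus encodes is shown first because its seed sets which RNAs it can pair with. Mouse miR-128-3p is made from 2 loci, Mir128-1 and Mir128-2, and the deletion is of Mir128-2. In the mature sequence the capitals mark the seed, bases 2 to 8, and in the hairpins they mark the mature arm. All come from RefSeq on GRCm38.p6, with Mir128-2 at chr9:112118636-112118711 on the minus strand and Mir128-1 at chr1:128202361-128202430 on the plus strand.
mmu-miR-128-3p: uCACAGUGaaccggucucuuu
Mir128-2 hairpin: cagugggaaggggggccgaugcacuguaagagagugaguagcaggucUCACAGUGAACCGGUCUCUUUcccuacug
Mir128-1 hairpin: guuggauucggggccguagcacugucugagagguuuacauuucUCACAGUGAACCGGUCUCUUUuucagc
The mature arm is the same at both loci, so its sequence does not tell the loci apart. The arrays did not measure the mature microRNA, and transcript sequences of the members were not used here.

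The values are log2 expression that the authors had centred on each probe set's median over the 16 arrays. They compare arrays with each other and hold no absolute level, so a scarce member looks the same as an abundant one, and the D1 identity of the RNA cannot be checked by the level of its markers. In such a pull-down, fewer D1 neurons, less RNA per neuron and less RNA on ribosomes cannot be told apart either. As a marker check, 6 of 7 D1 neuron markers had a positive difference and 1 a negative one, with a median of 0.20 log2, or 0.10 without the 2 control arrays described next. None passed over all genes, and 3 were higher at an unadjusted p under 0.05, as were 4.97% of all genes. Among the control mice, replicate 3 of repeat 1 and replicate 1 of repeat 2 stood apart, with means over 12 oligodendrocyte markers of 1.57 and 1.40, against -0.39 to 0.44 on the other 14 arrays. Control repeat 2 replicate 1 also had the highest 3′ minus 5′ value, which compares the ends of the Gapdh and beta-actin transcripts and reflects RNA integrity, at 1.82 log2, with no other array over 1.17. Of 13 listed oligodendrocyte markers 12 were measured, and all 12 had a negative genotype difference, with a mean level between -0.39 and 0.44 on deletion arrays, against -0.36 to 1.57 on control arrays. Their median difference was -0.34 log2, and 0.070 without both arrays. Markers of other cells also had 0 calls. The cortical neuron markers were all 3 negative, with a median of -0.38 log2, or -0.30 without both arrays, and the 4 interneuron markers had a median of -0.32, or -0.075 without them. The 3 D2 neuron markers had a median of -0.14 that turned to 0.20 without both arrays, and the 6 astrocyte markers one of -0.036 that turned to 0.082. The 3 microglia markers had a median of -0.12, or -0.0049 without both, and the 3 vascular markers one of -0.0017, or -0.0020. Of the vascular markers Flt1 and Tek hardly varied, at 0.0020 and -0.0017, while Esam was at -0.32, or -0.39 without both. For D2 neurons, microglia and vascular cells 6 markers each were listed and 3 measured. The part of other cells in the results was not tested. Below, a genotype difference that turns sign or moves by over 1.5 times without both arrays is also given without them. Exempt from this are the 5 probe sets outside the members that were most like Tpp2 from array to array.

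Tpp2 was lower in the deletion mice on 1 of its 5 probe sets, 1421894_a_at. Its values in deletion repeat 1 were -0.056, -0.34, -0.21 and -0.25, against 0.18, 0.042, 0.29 and 0.11 in control repeat 1. In deletion repeat 2 they were -0.15, 0.011, -0.12, -0.082 and -0.011, against 0.55, 0.30 and 0.18 in control repeat 2. Every deletion array lay below every control array, within each repeat and over both, although the highest deletion value and the lowest control value, 0.011 and 0.042, were close. The difference was -0.39 ± 0.057 log2 (SE, n = 9 and 7), or 76.3% of the control level, with a 95% interval from -0.51 to -0.27. It was -0.37 in repeat 1 and -0.41 in repeat 2. Its limma adjusted p over all probe sets, 0.038, is the value that brought Tpp2 into view, and the next member in order of adjusted p, a Prep probe set, was at 0.53.

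**Figure D1:**
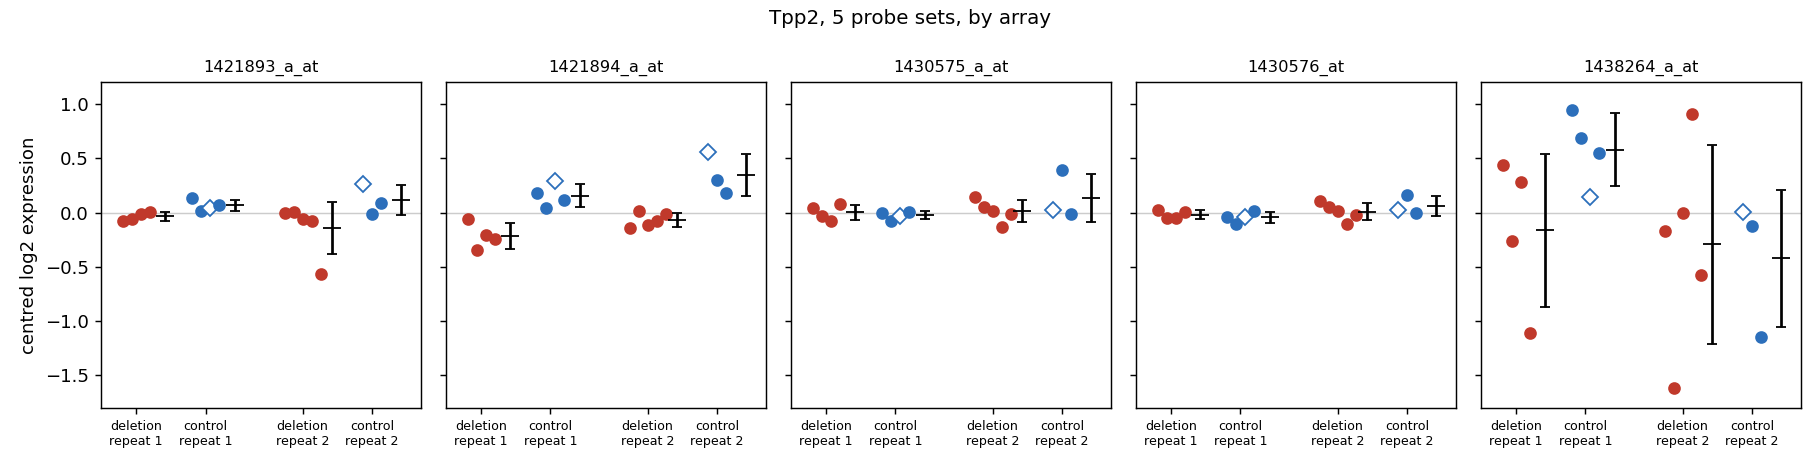
Centred log2 expression (vertical axis) of the 5 Tpp2 probe sets on each array, with deletion mice in red and control mice in blue within each experimental repeat. Open diamonds are the control arrays with high oligodendrocyte markers, and bars give mean ± SD. On 1421894_a_at all deletion arrays lie below all control arrays, which holds for none of the other 4 probe sets.

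Of all probe sets 1, or 0.00269%, was called lower, and this was it, while 11 were called higher. Without both control arrays that stood apart, 0 were called either way. Groups without overlap and with deletion lower occurred for 4 probe sets, or 0.0108%. Both shares come from the contrast that chose Tpp2. The 2 control arrays that stood apart gave 2 of the 4 highest values of 1421894_a_at, 0.29 and 0.55. Without them the difference was -0.32 log2, the groups still did not overlap since neither array was the lowest control, and the adjusted p was 0.19. After genotype and repeat were removed, the probe set followed the oligodendrocyte marker mean with r = 0.68 over 16 arrays, and with r = 0.14 over the 14 arrays that remain without both. What these markers contribute to the difference was not tested. The call was also lost in 12 of the 16 fits that left out 1 array, in which the difference lay between -0.42 and -0.34 and the adjusted p between 0.021 and 0.10. It was kept without deletion repeat 1 replicate 1, deletion repeat 2 replicate 2, control repeat 1 replicate 2 or control repeat 2 replicate 3. In the authors' deposited table this probe set has a p-value of 3.01e-05, unadjusted.

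None of the other 4 Tpp2 probe sets was called or had groups without overlap over both repeats, although 1421893_a_at was also lower in each repeat. On 1421893_a_at the deletion arrays ranged from -0.56 to 0.0074 with a median of -0.056, against -0.0094 to 0.26 with a median of 0.073 on control arrays. All 9 deletion arrays lay below the control mean of their repeat, and the groups overlapped. The difference was -0.18 ± 0.075 log2 (95% interval -0.34 to -0.015, limma adjusted p = 0.68). It was -0.10 in repeat 1, where the groups did not overlap, and -0.26 in repeat 2, where deletion repeat 2 replicate 5 lay far below the rest at -0.56.

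1438264_a_at varied most, with a residual SD of 0.72 log2, larger than that of 99.2% of all probe sets. It was at 0.44, -0.27, 0.28 and -1.11 in deletion repeat 1, against 0.95, 0.69, 0.14 and 0.55 in control repeat 1. In deletion repeat 2 it was at -0.17, -1.62, -0.0034, 0.90 and -0.57, against 0.0034, -0.13 and -1.15 in control repeat 2. The spread within each group exceeded the difference of -0.32 ± 0.35 log2, which was -0.75 in repeat 1 and 0.13 in repeat 2. This probe set went down as the 3′ minus 5′ control value went up, with r = -0.56 over 16 arrays and -0.85 over 14, and the part of RNA quality in its values was not tested.

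1430575_a_at and 1430576_at differed by -0.045 ± 0.059 and -0.012 ± 0.034 log2, with residual SDs of 0.12 and 0.067. They moved together from array to array (r = 0.93 over 16 arrays), and the highest value of each was that of control repeat 2 replicate 2. Among the 10 pairs of Tpp2 probe sets r was otherwise between -0.30 and 0.18, so only 1430575_a_at and 1430576_at moved closely together. The platform assigns these 2 to the same sequence record. It also assigns 1421893_a_at and the called 1421894_a_at to 1 shared record, yet their residuals were hardly related (r = 0.077). Probe sets ending in _a_at recognise several transcripts of a gene. Which Tpp2 transcripts each of the 5 detects is not given beyond these records in the sources used here. Over the mean of its 5 probe sets Tpp2 differed by -0.19 ± 0.071 log2, with -0.23 in repeat 1 and -0.14 in repeat 2, and the groups overlapped. All 5 enter this mean with equal weight, so 1438264_a_at, by far the most variable, moves it most. That probe set was at -0.75 in repeat 1.

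Prep had the largest difference among the other members, on 1 of its 2 probe sets. Prep is a serine peptidase that cleaves short proline-containing peptides such as substance P. Probe set 1439942_at was at 0.042, 0.30, -0.12 and -0.41 in deletion repeat 1, against -0.32, 1.01, 0.47 and 0.58 in control repeat 1. In deletion repeat 2 it was at -0.61, 0.031, -0.70, -0.49 and -0.031, against 0.66, 0.28 and -0.072 in control repeat 2. All 9 deletion arrays lay below the control mean of their repeat, and the groups overlapped in both repeats. The difference was -0.57 ± 0.19 log2 (95% interval -0.97 to -0.16), with -0.49 in repeat 1 and -0.65 in repeat 2, and it did not pass over all probe sets (limma unadjusted p = 0.0095, adjusted p = 0.53). Without the 2 control arrays that stood apart it was -0.47. With array weights it was smaller, at -0.37. Its residuals went up with the 3′ minus 5′ value (r = 0.57 over 16 arrays, 0.51 over 14), and the part of RNA quality was not tested.

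The other Prep probe set, 1422796_at, gave no sign of such a difference. It ranged from -0.30 to 0.17 on deletion arrays, with a median of -0.014, against -0.39 to 0.13 with a median of 0.0080 on control arrays. The difference was 0.0024 ± 0.065 log2 (0.021 without the 2 control arrays), with a 95% interval of -0.14 to 0.14 that lies wholly above that of the first probe set. The residuals of both probe sets were not positively related (r = -0.20 over 16 arrays). As the mean of both, Prep was at -0.28 ± 0.093 log2 (limma adjusted p = 0.39 over all genes).

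**Figure D2:**
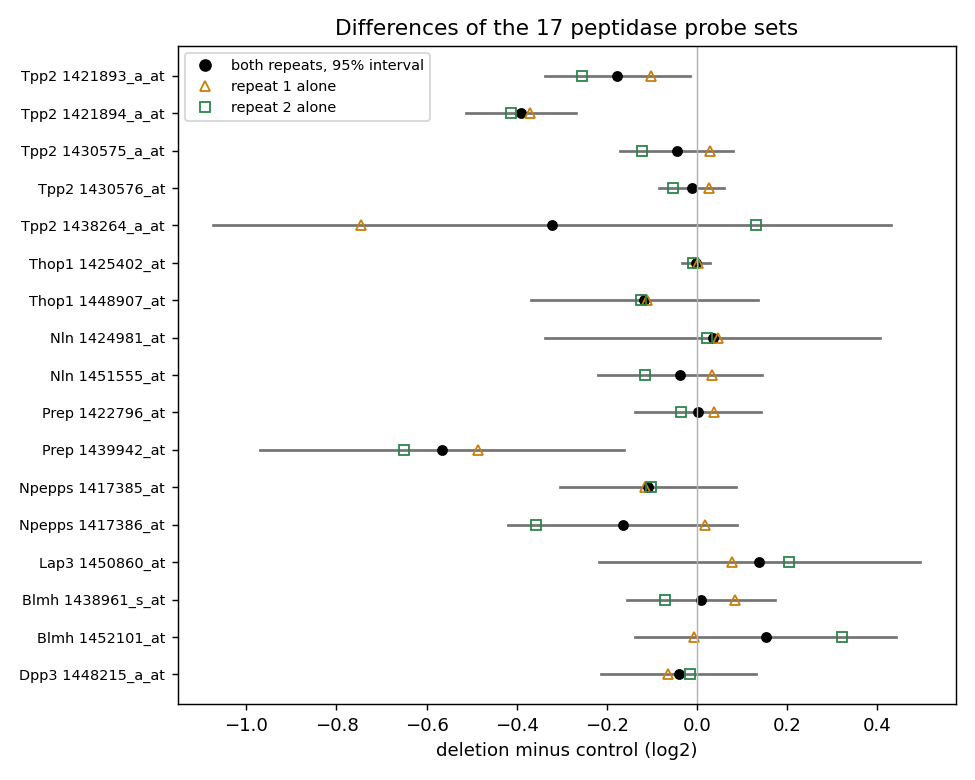
Deletion minus control difference (log2, horizontal axis) of the 17 peptidase probe sets. Black points with lines are the fit over both repeats with 95% intervals, orange triangles repeat 1 alone and green squares repeat 2 alone; the intervals of 3 probe sets, Tpp2 1421893_a_at, Tpp2 1421894_a_at and Prep 1439942_at, exclude 0.

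Thop1 and Nln, the related zinc endopeptidases that inactivate neurotensin and other short neuropeptides, showed no difference beyond their spread. Thop1 1448907_at was between -0.51 and 0.48 on deletion arrays and between -0.027 and 0.34 on control arrays, a difference of -0.12 ± 0.12 log2 (95% interval -0.37 to 0.14). Thop1 1425402_at hardly varied, with a residual SD of 0.022 log2 that 6.3% of all probe sets did not exceed. Its difference was -0.0027 ± 0.015, and centred values cannot show whether it had signal.

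Nln 1424981_at lay between -0.25 and 0.082 on all but 3 arrays, which were deletion repeat 1 replicate 3 at 1.21 and control repeat 1 replicates 1 and 3 at 0.32 and 0.54. The difference was 0.036 ± 0.17 log2 with that deletion array and -0.12 without it, and it was 0.088 without the 2 control arrays that stood apart. Nln 1451555_at differed by -0.037 ± 0.085. Over both probe sets Nln was at -0.00097 ± 0.11 log2, with a 95% interval of -0.24 to 0.24, and at 0.030 without the 2 control arrays.

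Among the aminopeptidases, Npepps, the puromycin-sensitive aminopeptidase that is abundant in brain, differed by -0.11 ± 0.091 log2 on 1417385_at and by -0.16 ± 0.12 on 1417386_at. Without the 2 control arrays that stood apart these were -0.062 and -0.059. On 1417386_at control repeat 2 replicate 1 had the highest value of all arrays, 0.74, and the residuals had r = 0.53 against oligodendrocyte markers over 16 arrays and 0.24 over 14, whose part in the difference was not tested. For 1417386_at the difference was 0.017 in repeat 1 and -0.36 in repeat 2, and the interaction of genotype with repeat did not pass (limma unadjusted p = 0.12, adjusted p = 0.89). Lap3, the cytosolic leucine aminopeptidase, was between -0.68 and 0.25 on deletion arrays, with a median of 0.068, against -0.74 to 0.17 with a median of -0.23 on control arrays. Its difference of 0.14 ± 0.17 log2 was smaller than the spread of either group. Lap3 went down as the 3′ minus 5′ value went up (r = -0.58 over 16 arrays, -0.70 over 14), and the part of RNA quality was not tested.

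Blmh, bleomycin hydrolase, a cysteine aminopeptidase, was at 0.15 ± 0.14 log2 on 1452101_at and 0.0094 ± 0.076 on 1438961_s_at (0.034 without the 2 control arrays). On 1452101_at the lowest values were those of the 2 control arrays that stood apart, -0.67 and -0.64, against at least -0.38 on all others. Without both the difference was -0.048, with the opposite sign, and the residuals had r = -0.78 against oligodendrocyte markers over 16 arrays and -0.22 over 14. On 1438961_s_at the residuals rose with the 3′ minus 5′ value (r = 0.65 over 16 arrays and 0.77 over 14). Dpp3, a zinc peptidase that removes dipeptides and degrades enkephalins, was at -0.041 ± 0.081 log2, and at 0.043 without the 2 control arrays.

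**Figure D3:**
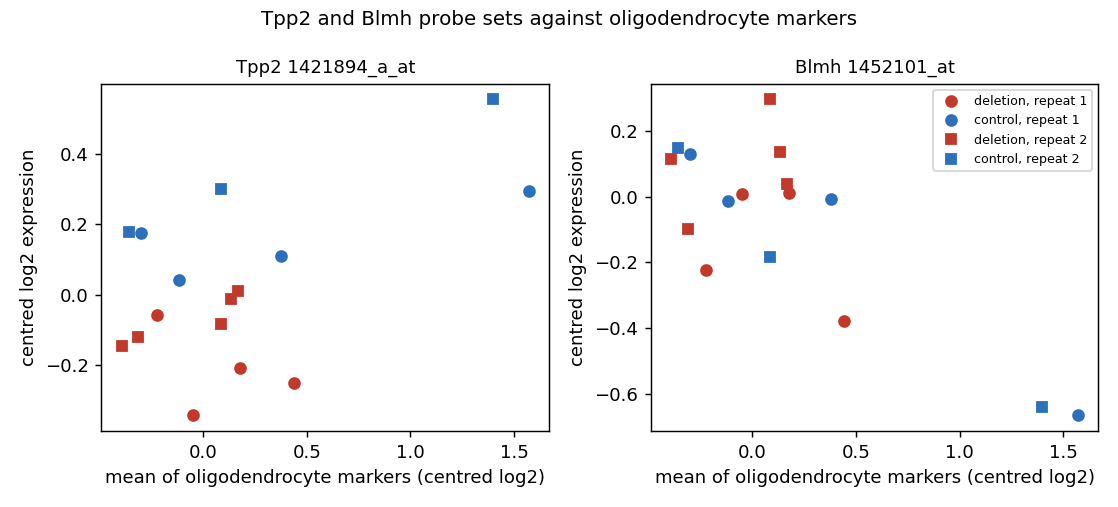
Centred log2 expression of Tpp2 1421894_a_at and Blmh 1452101_at (vertical axes) against the mean of 12 oligodendrocyte markers on the same array (horizontal axis), with deletion mice in red, control mice in blue, repeat 1 as circles and repeat 2 as squares. The control arrays at 1.57 and 1.40 on the horizontal axis are among the 4 highest for the Tpp2 probe set and the lowest for the Blmh probe set.

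Counted together, 1 of the 17 probe sets was called lower and 0 higher by limma over all probe sets, against 0.00269% and 0.0296% of all probe sets, and the one called was that which chose Tpp2. At an unadjusted p under 0.05, 3 were lower, 2 of them for Tpp2 and 1 for Prep, and 0 higher, where 3.13% of all probe sets were lower and 3.71% higher. Of the 12 probe sets of the other 7 genes, 7 had a negative difference, and the share over all probe sets was 58.6%. Their median difference was -0.020 log2, against -0.0034 over all probe sets. Over genes 0 of 8 were called, 2 (Tpp2 and Prep) had an unadjusted p under 0.05 and were lower, where 3.71% of all genes were.

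The repeats themselves differed for Npepps and Dpp3, a contrast that the choice of members did not use. Npepps was higher in repeat 2 than in repeat 1 on both probe sets. On 1417386_at the 8 arrays of repeat 2 ranged from -0.011 to 0.74 with a median of 0.48, against -0.45 to 0.098 with a median of -0.25 on the 8 arrays of repeat 1. The difference was 0.59 ± 0.12 log2 (limma adjusted p = 0.0045 over all probe sets). On 1417385_at repeat 2 ranged from -0.11 to 0.24 and repeat 1 from -0.62 to 0.0098, a difference of 0.41 ± 0.090 (limma adjusted p = 0.0089). In both cases 1 array of repeat 2 and 7 of repeat 1 were below 0, and the ranges overlapped slightly.

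Dpp3 was lower in repeat 2, where it ranged from -0.53 to 0.0021 with a median of -0.21, against -0.0021 to 0.41 with a median of 0.092 in repeat 1. The difference was -0.32 ± 0.080 log2 (limma adjusted p = 0.019). These 3 probe sets passed in each of the 16 fits that left out 1 array. Tpp2 1421894_a_at was at 0.16 ± 0.056 log2, repeat 2 minus repeat 1, and did not pass (limma adjusted p = 0.080). It passed in 2 of the 16 fits that left out 1 array. The call share was 3 of 17 here, against 11.9% of all probe sets, of which 6.35% were higher and 5.53% lower in repeat 2. What set the repeats apart is not given in the labels.

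**Figure D4:**
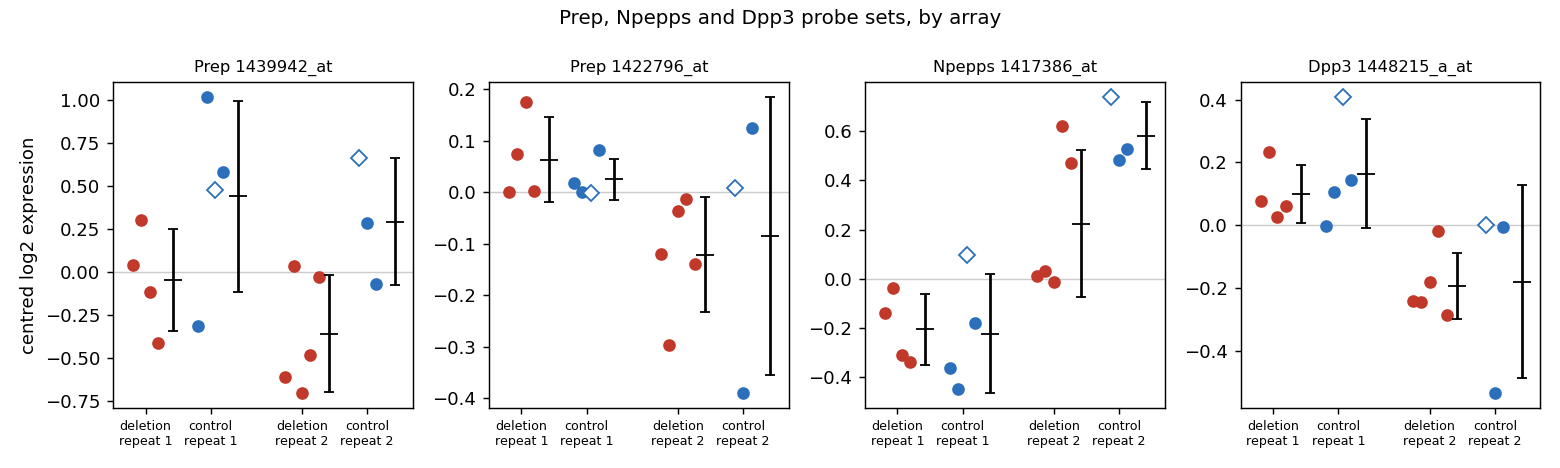
Centred log2 expression (vertical axes, each with its own scale) of both Prep probe sets, Npepps 1417386_at and Dpp3 1448215_a_at on each array, deletion mice in red and control mice in blue within each repeat, with mean ± SD beside them and open diamonds for the control arrays with high oligodendrocyte markers. Prep 1439942_at and Prep 1422796_at differ in pattern, and repeat 2 lies mostly above repeat 1 for Npepps and mostly below it for Dpp3.

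No member's genotype difference was shown to differ between the repeats. The interaction called 0 of 17 probe sets, and 0% of all probe sets, by limma at an adjusted p under 0.05, and 0 of 17 had an unadjusted p under 0.05, where 3.85% of all probe sets did. The estimate furthest from 0 was that of Tpp2 1438264_a_at, at 0.88 ± 0.69 log2 (repeat 2 minus repeat 1 of the deletion minus control difference). For Tpp2 1421894_a_at it was -0.043 ± 0.12, and 0.016 without the 2 control arrays.

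As means of their probe sets, the genes' residuals after genotype and repeat were weakly related from array to array, while some single probe sets of different genes were strongly related. Tpp2 1430576_at and 1430575_a_at followed the flat Thop1 1425402_at (r = 0.94 and 0.88). That Thop1 probe set lay close to the median of all probe sets on each array. Its highest value was 0.057 on control repeat 2 replicate 2, where the median was 0.046. Its lowest was -0.028 on control repeat 1 replicate 2, where the median was -0.034. What shifts of whole arrays contribute to these r was not tested. Tpp2 1438264_a_at ran against Blmh 1438961_s_at (r = -0.82), and both followed the 3′ minus 5′ value in opposite directions, as given above. Tpp2 1430575_a_at ran against Prep 1422796_at and Dpp3 (r = -0.71 each). Control repeat 2 replicate 2 had the highest value on this Tpp2 probe set, 0.39, and the lowest on Prep 1422796_at and Dpp3, -0.39 and -0.53. How far these r rest on that array was not tested. Over the 28 pairs of gene means r ranged from -0.40 to 0.45, with a median of 0.014, all over the same 16 arrays. The member probe set most like Tpp2 1421894_a_at was Npepps 1417386_at (r = 0.395), and over the 14 arrays r was 0.063. Among 19884 probe sets with 1 gene outside the members and a residual SD of at least 0.1, the 5 most like it belonged to 4 genes. They were Phf3 1452441_at (r = 0.93), Pogz 1455046_a_at (r = 0.90), Rdx 1416179_a_at (r = 0.90), Atp7a 1418774_a_at (r = 0.89) and Phf3 1428998_at (r = 0.89). Phf3 and Pogz encode nuclear proteins, Rdx the membrane-to-actin linker radixin, and Atp7a a copper transporter. Without the 2 control arrays these r were 0.88, 0.78, 0.78, 0.78 and 0.75. Their genotype differences, between -0.26 and -0.13 log2, did not pass (limma adjusted p of 0.73 or more). On these probe sets control repeat 1 replicate 3 was at 0.33 to 0.54 and control repeat 2 replicate 1 at 0.54 to 1.54. Their differences without these 2 arrays are not given here, and how far they rest on both arrays was not tested.

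The start sites of 7 of the 8 genes, all but Prep, had a RefSeq promoter entry on GRCm38.p6, with 2 for Dpp3, each covering 250 bases before to 50 after the start. All 8 windows were GC-rich, between 55.3% and 79.0%, against a median of 52.7% over 32851 promoters. All 8 held the GC box GGGCGG on either strand, which 35.7% of all promoters hold, and none held TATAAA, which 13.6% hold. CCAAT was found in 4 (37.4% of all), and the ETS factor motif CCGGAAG in 1 Dpp3 window (8.86%). Shown are the window of Tpp2, at chr1:43933744-43934043 on the plus strand, and that of Npepps, which differed between repeats, at chr11:97280527-97280826 on the minus strand, read 5′ to 3′ with matches to these 4 motifs, on either strand, in capitals.
Tpp2: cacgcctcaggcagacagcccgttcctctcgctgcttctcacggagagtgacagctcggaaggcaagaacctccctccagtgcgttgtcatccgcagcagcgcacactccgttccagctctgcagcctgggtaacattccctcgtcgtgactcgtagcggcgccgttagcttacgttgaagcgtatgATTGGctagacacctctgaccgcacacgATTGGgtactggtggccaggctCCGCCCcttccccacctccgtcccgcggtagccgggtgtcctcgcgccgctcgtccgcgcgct
Npepps: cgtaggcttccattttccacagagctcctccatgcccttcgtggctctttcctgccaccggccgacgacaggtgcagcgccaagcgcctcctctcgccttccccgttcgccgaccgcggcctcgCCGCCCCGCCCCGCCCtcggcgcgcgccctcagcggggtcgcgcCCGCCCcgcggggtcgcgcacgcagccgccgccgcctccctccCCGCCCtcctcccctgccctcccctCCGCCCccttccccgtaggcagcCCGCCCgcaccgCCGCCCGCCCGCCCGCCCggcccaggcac
Tpp2 held 1 GC box and 2 CCAAT matches, both on the minus strand as ATTGG, and Npepps held 11 overlapping or separate GC boxes and no CCAAT. A match is a description of letters and no evidence that a factor binds.

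Around the members, 14 of 15 listed other cytosolic peptidases were measured, and 1 passed over all genes. It was Cndp2, a dipeptidase, which was higher in the deletion mice, where it ranged from -0.16 to 0.44 with a median of 0.13, against -0.41 to -0.19 with a median of -0.25 in control mice. The difference was 0.41 ± 0.065 log2 (limma adjusted p = 0.034), with no overlap of the groups, which 0.0309% of all genes showed with deletion higher, and without the 2 control arrays it was 0.41 with an adjusted p of 0.21. Cndp2 had been called in earlier results of these data before it was listed, so its difference is a description and supports nothing. The call rule found 10 genes, or 0.0617% of all, higher and 0% lower, and without the 2 control arrays 1 higher. The others did not pass, among them Metap1, a methionine aminopeptidase, at 0.28 ± 0.14, Pgpep1, which removes pyroglutamate, at 0.19 ± 0.11, and Ide, the insulin-degrading enzyme, at -0.14 ± 0.061. Without the 2 control arrays Metap1 was at 0.061 and Ide at -0.052. The list had 10 positive and 4 negative differences and a median of 0.041 log2, which became -0.017 without the 2 control arrays, against -0.0026 over all genes.

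Enzymes that make or cut neuropeptides in the secretory path or at the membrane had 0 calls among 12 measured of 16 listed. They had 6 positive and 6 negative differences and a median of 0.0022 log2, or 0.0058 without the 2 control arrays. Some of these genes hardly varied, with differences between -0.0041 and 0.0066 log2, and centred values cannot show whether they had signal. The furthest from 0 were Trhde, which cuts thyrotropin-releasing hormone, at -0.48 ± 0.23, Pam, the amidating enzyme, at 0.26 ± 0.17, and Ace at 0.17 ± 0.10. Neuropeptide precursors had 0 calls among 15, with 6 positive and 9 negative differences. Their median was -0.017 log2, or -0.028 without the 2 control arrays. Vip was at -0.69 ± 0.31 log2, Pdyn, the dynorphin precursor, at 0.63 ± 0.17 and Cartpt at 0.57 ± 0.30. Pdyn is also one of the D1 neuron markers counted above.

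Upstream of the peptidases, the 20S proteasome core had 0 calls among 14 subunits, 11 positive and 3 negative, with a median of 0.046 log2 that became -0.036 without the 2 control arrays. Psma7 was at 0.22 ± 0.21, Psmb5 at 0.14 ± 0.099 and Psmb7 at 0.12 ± 0.15. Without the 2 control arrays these were 0.015, 0.042 and -0.062 in the same order. Proteasome activators and immunoproteasome subunits had 0 calls among 7, 2 positive and 5 negative, with Psmb10 at -0.21 ± 0.20, Pomp, a proteasome assembly factor, at 0.18 ± 0.081 and Psme1 at 0.11 ± 0.15. Without the 2 control arrays Psmb10 was at -0.34, Pomp at 0.086 and Psme1, with its sign turned, at -0.11. Genes of class I molecules and of their peptide loading had 0 calls among 9, 4 positive and 5 negative. B2m was at -0.25 ± 0.20, Pdia3 at 0.23 ± 0.19 and Canx at 0.20 ± 0.088.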

How the data were processed

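RNA from tagged ribosomes of striatal D1 neurons was measured on 16 arrays, 1 per mouse. GCOS 1.4 and GCRMA are listed in the submitters' processing notes, with no role given. The deposited values are log2 expression, centred by the authors on each probe set's median (within 5e-07 of 0 in the 37174 rows). Each probe set also has a p-value from the authors, for genotype in a 2-way ANOVA per the file headers; ordinary variances with genotype, repeat and their interaction gave it to within 2e-05. The 16 columns of that table whose names match no label were not used.

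After 62 Affymetrix control probe sets were left out, limma 3.58.1 in R 4.3.3 (lmFit, eBayes, two-sided, 13 residual degrees of freedom) was fitted with genotype and experimental repeat, with Benjamini-Hochberg adjustment over all 37112 probe sets or 16206 genes (means of a gene's probe sets) and calls at an adjusted p under 0.05. SE is that of the fitted difference. Of the probe sets, 29680 had 1 gene, 819 several and 6613 none, and 29539 symbols matched RefSeq identifiers. No filter on dim probe sets was possible. Titles gave genotype, repeat and replicate; p-values measure the spread between mice. The titles do not say whether replicate numbers pair the mice, and the main fit did not pair them. Same-numbered mice had r between -0.27 and 0.39 over 7 pairs, which cannot decide whether they were paired. Members and lists were chosen with earlier results of these data known. Named genes were all members, Cndp2, the called genes, the 3 largest differences of each list and the 5 probe sets most like Tpp2. Only markers of vascular cells were printed by name as cell type markers, after their values were seen. Pdyn, a D1 neuron marker too, was printed as a neuropeptide precursor. Ide was added after its values were seen. The fit was tested on simulated data. The number of arrays limits the precision.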

Additional observations from a re-analysis of the deposited data

Results flagged for a closer look

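Of 51 groups of 4 or 5 arrays that were examined over the 17 probe sets, 2 held an array far from the others of its group, and chance gives about 1 in 20. On Tpp2 1421893_a_at, deletion repeat 2 replicate 5 was at -0.56, while the other 4 arrays of that group lay between -0.083 and 0.0019. Without this array the difference of the probe set was -0.12 log2. It passed neither without nor with the array (limma adjusted p = 0.41 and 0.68). On Nln 1424981_at, deletion repeat 1 replicate 3 was at 1.21, while the other 3 arrays of its group lay between -0.25 and -0.014.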

How the results depend on the processing

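Tpp2 1421894_a_at kept its direction under all 25 alternatives, and its adjusted p ranged from 0.015 to 0.61. The count of members called lower fell to 0 without both control arrays that stood apart, without the repeat term, in repeat 1 alone, in repeat 2 alone, with a replicate block, with ordinary variances and an interaction term together and with a residual SD of at least 0.1, and was 0 to 1 with 1 array left out. Under the replicate block the difference was -0.39 with an adjusted p of 0.28; same-numbered mice correlated at -0.27 to 0.39, and 3 of 7 pairs matched best by number. The count of members lower in repeat 2 was 1 to 2 with 1 array left out, 2 without control repeat 2 replicate 3, where Prep 1422796_at passed. The count of other cytosolic peptidases called higher was 0 without both control arrays. The sign of some member results turned. Among them were Tpp2 1438264_a_at, Npepps 1417386_at and Blmh 1452101_at, at -0.32, -0.16 and 0.15 log2 in the main fit, while others were nearer 0. Without both control arrays Blmh 1452101_at was at -0.048, Dpp3 at 0.043, and as genes Nln at 0.030 and Blmh at -0.0066; the interactions of Tpp2 1421894_a_at, Prep 1439942_at, Npepps 1417385_at and Lap3 were 0.016, 0.0090, -0.031 and -0.094 (an alternative chosen after seeing the data). With array weights Prep 1422796_at was at -0.016. Without the repeat term it was at -0.017, Thop1 1425402_at at 0.00083 and the gene Nln at 0.00073. In repeat 1 alone Tpp2 1430575_a_at was at 0.028, Tpp2 1430576_at at 0.026, Thop1 1425402_at at 0.0037, Nln 1451555_at at 0.035, Npepps 1417386_at at 0.017, Blmh 1452101_at at -0.0067 and the gene Nln at 0.041. In repeat 2 alone Tpp2 1438264_a_at was at 0.13, Prep 1422796_at at -0.036 and Blmh 1438961_s_at at -0.070. With the replicate block Tpp2 1430576_at was at 0.013, Thop1 1425402_at at 0.0058 and Prep 1422796_at at -0.0063. With array medians subtracted the gene Nln was at 0.00084, and from its most variable probe set at 0.036. With 1 array left out, Tpp2 1430575_a_at ranged from -0.065 to 0.019, Tpp2 1430576_at from -0.025 to 0.015, Thop1 1425402_at from -0.0074 to 0.0046, Nln 1424981_at from -0.12 to 0.11, Prep 1422796_at from -0.056 to 0.051, Blmh 1438961_s_at from -0.022 to 0.038, Dpp3 from -0.12 to 0.000088, the gene Nln from -0.093 to 0.043, and the repeat difference of Tpp2 1421893_a_at from -0.074 to 0.024. The causes of these turns were not tested. The number of arrays and the centred values, which hide signal over background, limit all of these results.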
